A study of Mus musculus with 272 samples.

Results

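*Pax3* and *Pax7* encode the paired-box transcription factors of the myogenic lineage, and they were chosen here by gene symbol as 2 of 55413 annotated mouse genes. Both proteins bind DNA through a paired domain and a homeodomain and stand upstream of *Myf5* and *Myod1*, the genes that commit a cell to muscle. *Pax3* acts first, in the dermomyotome and in the myogenic precursors that migrate into the limb, and in the neural crest. *Pax7* takes over in the muscle stem cells (MuSCs) of the adult, where it is needed for their maintenance, while *Pax3* persists in the MuSCs of only some adult muscles.

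The chromatin data came from MuSCs. In the study's methods, MuSCs were sorted for GFP from hindlimb muscle of Pax7Cas9 mice, which carry Pax7Cre and a Cre-dependent Rosa26 Cas9-EGFP knock-in. The ChIP-seq and ATAC-seq methods do not repeat the mouse line or the sort. Open chromatin was measured by ATAC-seq and 3 histone marks by ChIP-seq, with 2 replicates of each. H3K4me3 sits at promoters, H3K27ac is found where promoters or enhancers are in use, and H3K27me3 is written by Polycomb repressive complex 2. The 8 libraries are described by tissue alone in their labels, with no age, sex or treatment, and there was no second condition. Each library was available as a list of peaks with no read counts, so the depth was unknown, and only the numbers of peaks can be given. ATAC-seq had 140716 peaks in replicate 1 and 94382 in replicate 2. H3K4me3 had 20512 and 18001, H3K27ac had 24209 and 18584, and the H3K27me3 lists held 6064 and 10458.

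The sort in the study's methods relied on a Cre driven from *Pax7*, so it selected cells with a history of *Pax7* expression. The state of *Pax7* could thus not be separated from the choice of cells. The Cre sequence on the targeted *Pax7* allele is not in the reference genome. The part of either in the values below was not tested. All cells were measured in bulk, so a mark on few cells and a weak mark on many cannot be told apart, and peaks of 2 marks at the same place need not lie on the same chromosomes.

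*Pax7* (ENSMUSG00000028736.13) lies on the minus strand of chr4:139737062-139833528 and *Pax3* (ENSMUSG00000004872.15) on the minus strand of chr1:78101267-78197134, in mm10 coordinates with the GENCODE M21 annotation. The genes are alike in size, 96.5 and 95.9 kb. *Pax7* has 2 annotated transcripts whose start sites are 521 bp apart, and *Pax3* has 3 within 296 bp. All distances below are from the outermost start site, counted as positive into and past the gene. A promoter is the 3 kb either side of every start site of a gene, and the surroundings of a gene are the gene with 100 kb either side.

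The sequences below are those of the places that the peaks describe, read from GRCm38.p6 on the strand of the gene, 5′ to 3′. Capitals mark matches on either strand to a set of motifs. They were the E-box CAGCTG of MYOD and MYF5 and the related E-box with letters CACCTG, the paired-domain letters GTCACGC, the AP-1 site TGANTCA, the RUNX letters TGTGGT, the TEAD letters GGAATG, the CCAAT box, the SP box GGGCGG and the TATA box TATAAA. They also included the homeodomain site TAAT followed after 2 or 3 bases by its reverse complement, and to the CTCF core consensus, which was added after the sequences had been seen. Neighbouring matches can overlap. The first pair shows the 300 bases upstream of each start site, chr4:139833529-139833828 for *Pax7* and chr1:78197135-78197434 for *Pax3*, which lie in the H3K4me3 peaks described below.
Pax7 start: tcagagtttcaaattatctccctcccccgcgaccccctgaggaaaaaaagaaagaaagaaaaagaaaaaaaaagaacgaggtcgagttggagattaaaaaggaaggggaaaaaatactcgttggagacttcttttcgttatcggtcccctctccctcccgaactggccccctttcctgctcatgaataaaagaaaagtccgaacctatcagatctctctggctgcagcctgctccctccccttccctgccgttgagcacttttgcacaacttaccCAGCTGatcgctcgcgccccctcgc
Pax3 start: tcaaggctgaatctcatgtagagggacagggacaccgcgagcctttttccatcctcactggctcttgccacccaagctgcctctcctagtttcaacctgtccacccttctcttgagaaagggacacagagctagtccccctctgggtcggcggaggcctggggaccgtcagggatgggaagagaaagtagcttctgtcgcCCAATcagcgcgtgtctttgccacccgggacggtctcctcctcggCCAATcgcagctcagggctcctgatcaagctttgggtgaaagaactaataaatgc

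The *Pax7* stretch held 14 CpG and 1 CAGCTG, an E-box letter sequence found in 14.2% of the same 300-base windows of all protein-coding genes. The *Pax3* stretch held 12 CpG and 2 CCAAT boxes, and 39.8% of windows held a CCAAT. The median window held 9 CpG.

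The next sequences are 200-base windows centred on open regions around *Pax7*, chosen because they were the strongest in ATAC-seq of both replicates, lay at the end of the promoter domain or held a CTCF core. They are at chr4:139771349-139771548 (62.1 kb), chr4:139719084-139719283 (114 kb), chr4:139797446-139797645 (36 kb), chr4:139821579-139821778 (11.8 kb), chr4:139858752-139858951 (25.3 kb upstream) and chr4:139877355-139877554 (43.9 kb upstream).
Pax7 62.1 kb: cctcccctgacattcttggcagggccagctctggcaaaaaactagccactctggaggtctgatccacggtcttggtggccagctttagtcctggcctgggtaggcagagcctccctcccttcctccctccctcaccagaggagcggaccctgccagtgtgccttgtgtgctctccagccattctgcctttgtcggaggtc
Pax7 114 kb: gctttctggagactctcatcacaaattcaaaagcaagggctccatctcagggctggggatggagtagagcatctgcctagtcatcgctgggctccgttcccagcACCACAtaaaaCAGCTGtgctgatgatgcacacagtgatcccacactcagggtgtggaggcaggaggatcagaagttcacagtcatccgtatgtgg
Pax7 36 kb: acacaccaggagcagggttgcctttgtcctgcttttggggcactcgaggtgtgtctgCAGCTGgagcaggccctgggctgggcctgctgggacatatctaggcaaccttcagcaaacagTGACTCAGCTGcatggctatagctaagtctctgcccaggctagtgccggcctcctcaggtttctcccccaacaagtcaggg
Pax7 11.8 kb: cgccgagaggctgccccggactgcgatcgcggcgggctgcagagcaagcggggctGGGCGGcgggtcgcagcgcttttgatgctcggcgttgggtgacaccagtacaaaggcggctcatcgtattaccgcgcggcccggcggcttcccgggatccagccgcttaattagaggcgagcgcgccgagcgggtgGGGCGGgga
Pax7 25.3 kb upstream: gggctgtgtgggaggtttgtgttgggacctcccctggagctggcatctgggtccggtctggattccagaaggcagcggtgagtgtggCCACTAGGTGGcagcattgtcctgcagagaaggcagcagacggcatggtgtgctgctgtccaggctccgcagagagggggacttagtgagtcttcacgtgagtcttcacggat
Pax7 43.9 kb upstream: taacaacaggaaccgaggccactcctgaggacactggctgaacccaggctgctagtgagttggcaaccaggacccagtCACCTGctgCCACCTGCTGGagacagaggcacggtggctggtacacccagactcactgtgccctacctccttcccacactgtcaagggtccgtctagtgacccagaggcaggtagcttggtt

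The corresponding windows around *Pax3* are the intronic open regions at chr1:78189112-78189311 (7.92 kb), chr1:78189582-78189781 (7.45 kb) and chr1:78181983-78182182 (15.1 kb), and the region at chr1:78203877-78204076 (6.84 kb upstream), part of which lies in an enhancer fragment listed by RefSeq.
Pax3 7.92 kb: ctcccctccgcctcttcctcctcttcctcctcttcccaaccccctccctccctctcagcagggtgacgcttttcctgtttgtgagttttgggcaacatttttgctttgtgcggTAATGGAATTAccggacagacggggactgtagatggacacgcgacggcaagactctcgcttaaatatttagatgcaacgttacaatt
Pax3 7.45 kb: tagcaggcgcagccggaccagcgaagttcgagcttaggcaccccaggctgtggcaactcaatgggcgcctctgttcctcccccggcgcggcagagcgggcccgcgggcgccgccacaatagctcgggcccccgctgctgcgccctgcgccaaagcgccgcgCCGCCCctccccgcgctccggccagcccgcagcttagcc
Pax3 15.1 kb: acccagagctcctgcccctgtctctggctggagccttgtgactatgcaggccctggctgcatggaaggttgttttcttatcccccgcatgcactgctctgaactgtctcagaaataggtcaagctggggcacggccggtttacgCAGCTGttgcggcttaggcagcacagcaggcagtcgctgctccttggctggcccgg
Pax3 6.84 kb upstream: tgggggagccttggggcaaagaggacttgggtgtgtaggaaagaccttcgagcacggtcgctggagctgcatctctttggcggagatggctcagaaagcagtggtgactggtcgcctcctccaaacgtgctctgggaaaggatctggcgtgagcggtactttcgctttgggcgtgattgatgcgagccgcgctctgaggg

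At their promoters the 2 genes shared open chromatin and H3K4me3 and parted on H3K27ac and H3K27me3. In either replicate, the *Pax7* promoter was open and had H3K27ac beside H3K4me3, with no H3K27me3 peak. The *Pax3* promoter was open in either replicate as well and had H3K27me3 beside H3K4me3, with no H3K27ac peak. Among 21938 protein-coding genes, 44.4% had the combination seen at *Pax7* and 2.73% that seen at *Pax3*. By feature, a promoter peak in both replicates was found for 67.8% of protein-coding genes in ATAC-seq, 60.8% in H3K4me3, 46.6% in H3K27ac and 4.81% in H3K27me3.

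H3K27ac peaks covered 98.3% and 92% of the *Pax7* promoter bases in replicates 1 and 2, and 0% of the *Pax3* promoter in both. The mean difference was 95.1 percentage points, with an SD of 4.51 over 2 replicates. Only 1 other protein-coding gene was as fully covered as *Pax7* in replicate 1, and none was in replicate 2.

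H3K27me3 peaks covered 18.1% and 34.7% of the *Pax3* promoter and none of the *Pax7* promoter, a mean difference of 26.4 percentage points (SD 11.7, n = 2) towards *Pax3*. The replicates differed here by nearly as much as the lower value itself. Coverage as high as that of *Pax3* was found at 207 and 201 of the 21938 protein-coding genes. The −log10 q of these *Pax3* peaks was at most 2.74 in replicate 1 and 7.16 in replicate 2, so a minimum of 5 left H3K27me3 at the promoter in replicate 2 alone.

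H3K4me3 covered 71.4% and 67.4% of the *Pax7* promoter and 29.2% and 27.6% of the *Pax3* promoter. The difference, 41 ± 1.7 percentage points (SD, n = 2), was far larger than the spread between replicates. Of protein-coding genes with an H3K4me3 promoter peak, the median coverage was 14.8% and 12.1%, so both genes lay above it. ATAC-seq peaks covered 14.4% and 14.7% of the *Pax7* promoter against 9.13% and 7.89% of the *Pax3* promoter, a difference of 6.04 ± 1.07 percentage points (SD, n = 2). With 2 libraries per feature, and both genes read from the same libraries, no test of these differences was made.

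The fold enrichment of a peak, the ratio of its signal to the local background that MACS2 gives, separated the genes less than the covered length did. The strongest ATAC-seq peak of the promoter had a fold of 10.9 and 10.4 at *Pax7* and of 8.48 and 11.8 at *Pax3*, so the replicates overlapped. The strongest H3K4me3 peak had a fold of 19 and 12.6 at *Pax7* and of 8.08 and 10 at *Pax3*, which did not overlap.

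**Figure D1:**
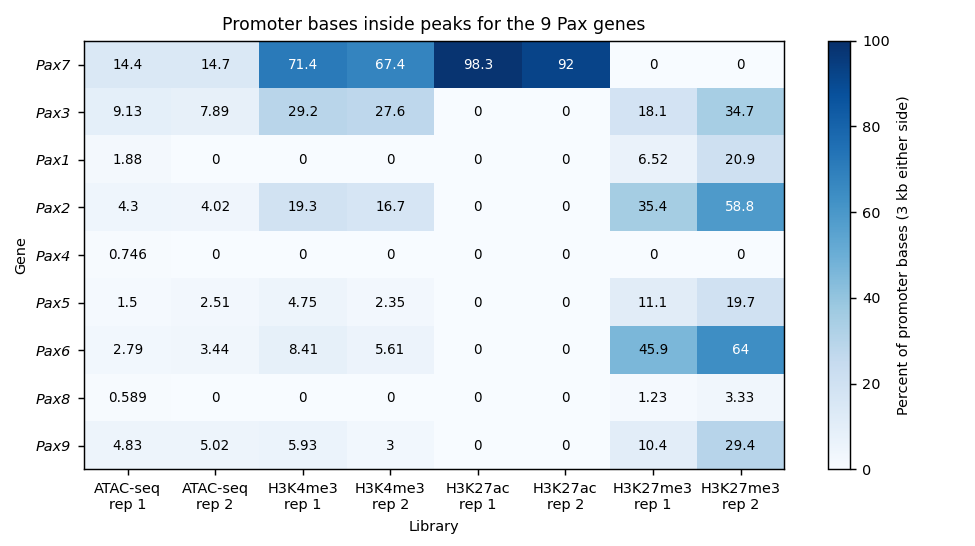
Percent of promoter bases inside peaks for the 9 Pax genes (rows) in the 8 libraries (columns, replicates 1 and 2 of each feature), with the value printed in each cell. Of the 9, *Pax7* alone had H3K27ac, at 98.3% and 92%. *Pax3* had H3K4me3 (29.2% and 27.6%) together with H3K27me3 (18.1% and 34.7%), and *Pax2*, *Pax5*, *Pax6* and *Pax9* also had both marks.

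The H3K27ac peak over the *Pax7* start was the widest of its list in both replicates. It was 15363 bp wide in replicate 1, chr4:139821057-139836419, and 13949 bp in replicate 2, chr4:139821260-139835208, against a median peak of 593 and 587 bp. The next widest H3K27ac peaks of the genome measured 11060 and 11204 bp. By fold the same peak was less extreme, at 15 and 14.7, ranking 4458 of 24209 and 3283 of 18584.

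H3K4me3 over *Pax7* was also broad, with 1 peak of 13842 bp in replicate 1, chr4:139820823-139834664, the third widest of 20512. In replicate 2 the same stretch was called as 4 peaks, the widest of 7067 bp at the start site, the sixth widest of 18001, and a second of 4291 bp with its summit 9.76 kb into the gene. Joined over gaps of up to 5 kb, the pieces of replicate 2 spanned 13.2 kb, of which 91.5% was covered. Both marks ended between 12.3 and 12.7 kb inside the gene, in intron 4. The strongest ATAC-seq peak of the promoter had its summit 329 and 330 bp downstream of the outermost start, so the 2 replicates placed it 1 bp apart.

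**Figure D2:**
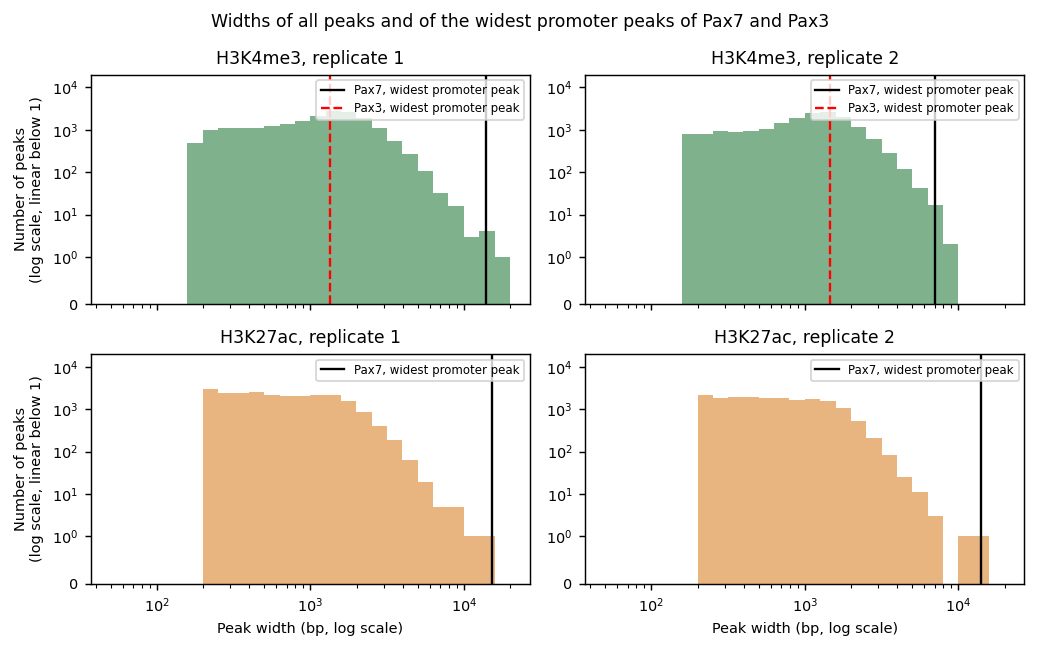
Number of peaks (vertical axis, log scale) by peak width in bp (horizontal axis, log scale) for H3K4me3 and H3K27ac in each replicate, with vertical lines at the widest promoter peak of *Pax7* (solid) and *Pax3* (dashed). The *Pax7* line stands at the right end of all 4 distributions, at 15363 and 13949 bp for H3K27ac, and *Pax3* has no line for H3K27ac because it had no such peak.

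The far end of the *Pax7* domain held an open region of its own, 11.8 kb into the gene, with ATAC-seq folds of 9.21 and 8.37. Its 200-base window, shown above, was 71% G and C with 29 CpG, and an observed-over-expected CpG ratio of 1.18, against a median of 0.220 for 43460 open windows away from promoters. It held 2 GGGCGG boxes, letters found in 7.65% of those windows. RefSeq places in addition the start of a lncRNA, Gm46873, at 0.350 kb inside *Pax7* on the opposite strand, so peaks at the start cannot be assigned to either gene.

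A second H3K4me3 peak was found in both replicates at the other end of *Pax7*, in the untranslated part of exon 9. It measured 1224 bp in replicate 1 (fold 6.33, −log10 q of 18) and 172 bp in replicate 2 (fold 3.81, −log10 q of 5.05), with summits 94.9 and 94.8 kb from the start. No ATAC-seq, H3K27ac or H3K27me3 peak of either replicate overlapped it. GENCODE annotates no start site there. Where the Cre sequence lies in the targeted *Pax7* allele is not given in the sources used here, and its part in this peak was not tested.

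**Figure D3:**
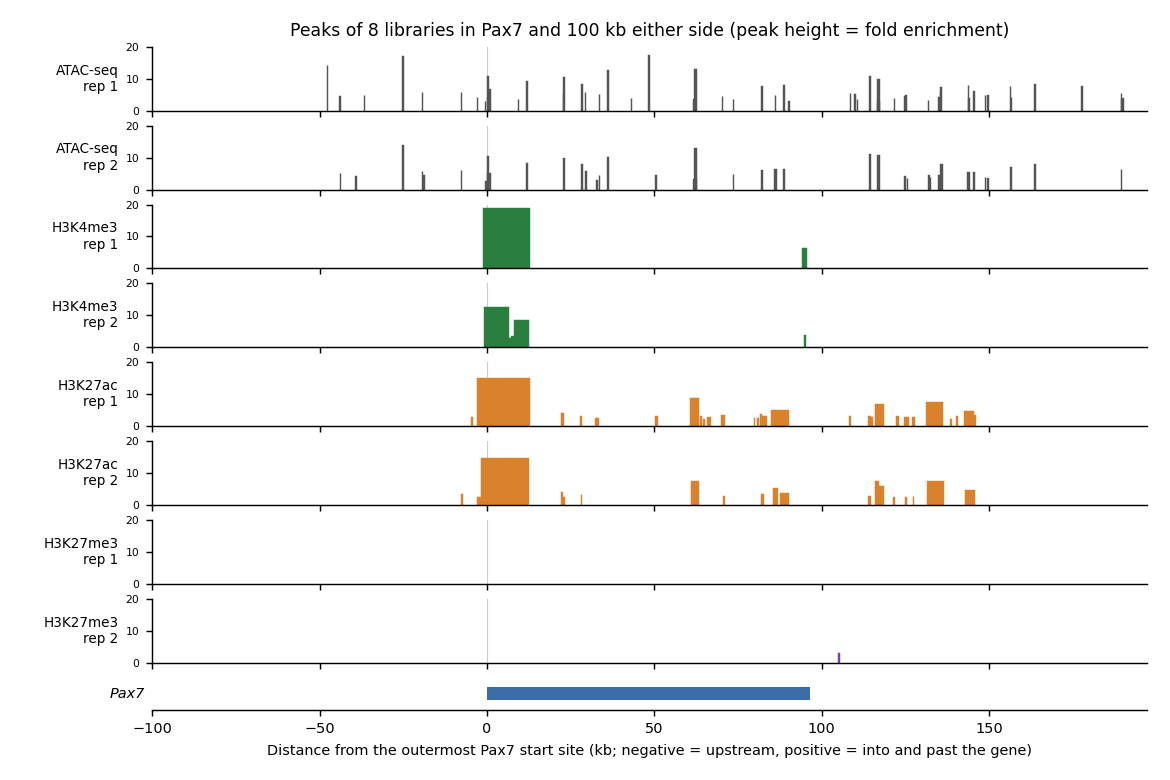
Peaks of the 8 libraries in *Pax7* and 100 kb either side, drawn by distance from the outermost start site in kb (horizontal axis) with the height of each block giving its fold enrichment and the gene as a blue bar. H3K4me3 and H3K27ac share the block at the start, H3K27ac goes on in separate blocks through the gene and past its end, and H3K27me3 is limited to 1 small peak in replicate 2.

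Beyond its promoter, *Pax7* was surrounded by open and acetylated regions. The gene and its 100 kb flanks held 55 and 40 ATAC-seq peaks in replicates 1 and 2, against 17 and 11 around *Pax3*, and 28 and 19 H3K27ac peaks against 2 and 1. The differences were 33.5 ± 6.36 and 22 ± 5.66 peaks (SD, n = 2). The median over protein-coding genes was 20 and 14 ATAC-seq peaks and 4 and 3 H3K27ac peaks. As many H3K27ac peaks as around *Pax7* were found for 70 and 208 of the 21938 genes, or 0.319% and 0.948%. These surroundings grow with gene length, and per 100 kb 1.39% and 3.54% of genes were as dense in H3K27ac peaks. H3K27ac peaks covered 45.1 and 33.5 kb of the *Pax7* surroundings and 0.864 and 0.454 kb of those of *Pax3*.

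Counting only open regions seen in both replicates and away from every annotated promoter, *Pax7* had 28, of which 12 lay inside the gene, 12 past its end and 4 upstream. H3K27ac of both replicates overlapped 15 of the 28, or 53.6%, where 8.35% of 43465 such regions in the genome were overlapped. H3K4me3 of both replicates overlapped 1 of the 28, the region 11.8 kb into the gene, against 5.19% in the genome. H3K27me3 overlapped none, against 0.198% with it in both replicates in the genome. Neighbouring regions under 1 broad H3K27ac peak are not independent of each other, so the 15 regions stand for fewer acetylated blocks.

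Counted from H3K27ac itself, 12 acetylated blocks were found in both replicates apart from the promoter domain, and 10 of the 12 held ATAC-seq peaks of both replicates. The same share over all H3K27ac regions of the genome was not counted, so this count cannot be called particular to *Pax7*. The strongest of them in replicate 1 lay in intron 7, at chr4:139770373-139772762, with H3K27ac folds of 8.92 and 7.41, and in replicate 2 it stood just under the first 2 blocks described next. It held the open region 62.1 kb into the gene, whose ATAC-seq folds were 12.9 in both replicates. Its window, shown above, matched none of the motifs.

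Past the 3′ end of *Pax7* a cluster of H3K27ac blocks lay between 114 and 146 kb from the start. Its widest block, chr4:139697471-139702516, was 5046 bp with folds of 7.59 and 7.59, and held 3 of the open regions. Another, chr4:139715189-139717781, had folds of 7.03 and 7.53 around an open region 117 kb from the start with ATAC-seq folds of 9.81 and 10.7. The block farthest from the gene, chr4:139688143-139691197, had folds of 4.84 and 4.56. Joined over gaps of up to 5 kb, the cluster formed a run of 11 peaks over 32.1 kb in replicate 1, the seventh longest of 16097 H3K27ac runs. In replicate 2 it fell into a run of 7 peaks over 22.3 kb, the ninth longest of 13149, and a lone peak of 2.63 kb. These ranks depend on the gap, since joining over up to 12.5 kb gave runs of 37.6 and 31.6 kb that ranked 112 of 13334 and 81 of 11336. The next protein-coding gene beyond the cluster is *Tas1r2*, a sweet taste receptor gene, whose promoter had no H3K4me3 or H3K27ac peak and ATAC-seq in replicate 1 alone, over 1.73% of its bases. The peak lists do not say which gene the cluster serves.

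Further acetylated blocks were inside the gene. In introns 7 and 8 the blocks at chr4:139743617-139748600 (folds 4.94 and 5.28) and chr4:139750291-139752077 (folds 3.85 and 3.47) held 3 open regions between them, and another block lay 70.3 kb from the start (folds 3.51 and 2.93). In intron 4 blocks lay 22.5 and 27.9 kb from the start, with folds of 3.99 and 4.16 and of 3.10 and 3.47. Away from the promoter domain, these regions were poor in CpG, with observed-over-expected ratios between 0.111 and 0.336. The median of H3K27ac peaks away from promoters was 0.223 and 0.235.

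The most open region around *Pax7* carried no histone mark of the 3. It lay 25.3 kb upstream, with ATAC-seq folds of 17.1 and 13.8, higher than at the promoter. The region 36 kb into the gene was likewise without marks, with folds of 12.7 and 10.1, and its window held 2 CAGCTG and an overlapping TGANTCA, the AP-1 letters. CAGCTG occurred in 32.5% of open windows in the genome and TGANTCA in 27.7%, and around *Pax7* in 7 and 8 of 28.

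The window 25.3 kb upstream held a CTCF core, as did 2 other open regions around *Pax7*, those 43.9 kb upstream and 163 kb downstream, the latter inside *Tas1r2*. CTCF is the zinc-finger protein at the borders of chromatin loops, and its core was found in 5.66% of open windows away from promoters. The 3 matches were in the regions nearest to either end of the *Pax7* surroundings or next to them, and none overlapped H3K27ac. The core lay on the strand of the gene at 163 kb downstream and 25.3 kb upstream, and on the opposite strand at 43.9 kb upstream. A match of letters is a description, and binding was not measured.

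A few strong ATAC-seq peaks around *Pax7* were found in replicate 1 alone. The strongest of all, with a fold of 17.3 and a −log10 q of 70.7, was 102 bp wide at chr4:139785184-139785285, 48.3 kb into the gene, and had no peak in replicate 2. Another, 139 bp wide at chr4:139881283-139881421, had a fold of 14.4. None of the bases of the first and 20.9% of those of the second were soft-masked as repeats. In all, 40 of 55 peaks of replicate 1 and 34 of 40 of replicate 2 overlapped a peak of the other replicate. The shares over the whole ATAC-seq lists were not counted. Replicate 1 had the longer list, and what part this played was not tested.

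*Pax3* showed a different picture, with H3K27me3 spread over its start and upstream of it and small H3K4me3 islands set within. Its surroundings held 28 and 36 H3K27me3 peaks, against 0 and 1 around *Pax7*, a difference of 31.5 ± 4.95 peaks (SD, n = 2). At most 0.547% of protein-coding genes had as many in either replicate, and the median gene had 0. Per 100 kb, 0.707% and 0.998% of genes were as dense in H3K27me3 peaks. The peaks were small, from 84 to 725 bp in replicate 1 and from 88 to 1134 bp in replicate 2, with folds between 2.76 and 6.5. The H3K27me3 lists were made at a loose threshold, and 18 of the 28 and 28 of the 36 peaks passed a q-value of 0.05. The 1 peak near *Pax7*, with a −log10 q of 0.451, did not. The share of the whole lists that passed was not counted. The median fold around *Pax3* was 4.13 and 4.11, against 3.93 and 3.76 over the whole lists. With a −log10 q of at least 5, 1 and 7 peaks remained around *Pax3*, so most of the difference in number rests on weak peaks.

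All 28 peaks of replicate 1 formed 1 run when gaps of up to 5 kb were joined, from 10.8 kb inside the gene to 20.1 kb upstream. In replicate 2 the run held 35 of the 36 peaks, from 9.85 kb inside to 19.7 kb upstream. The runs spanned 30.8 and 29.6 kb and ranked 15 of 1770 and 24 of 2770 by length, and 21.9% and 36.4% of them was covered by peaks. With gaps of up to 12.5 kb the same runs ranked 22 of 1668 and 41 of 2558. The rest of the gene towards its 3′ end held no H3K27me3 peak in either replicate. Merged over replicates there were 43 H3K27me3 regions, of which 16 were found in both.

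**Figure D4:**
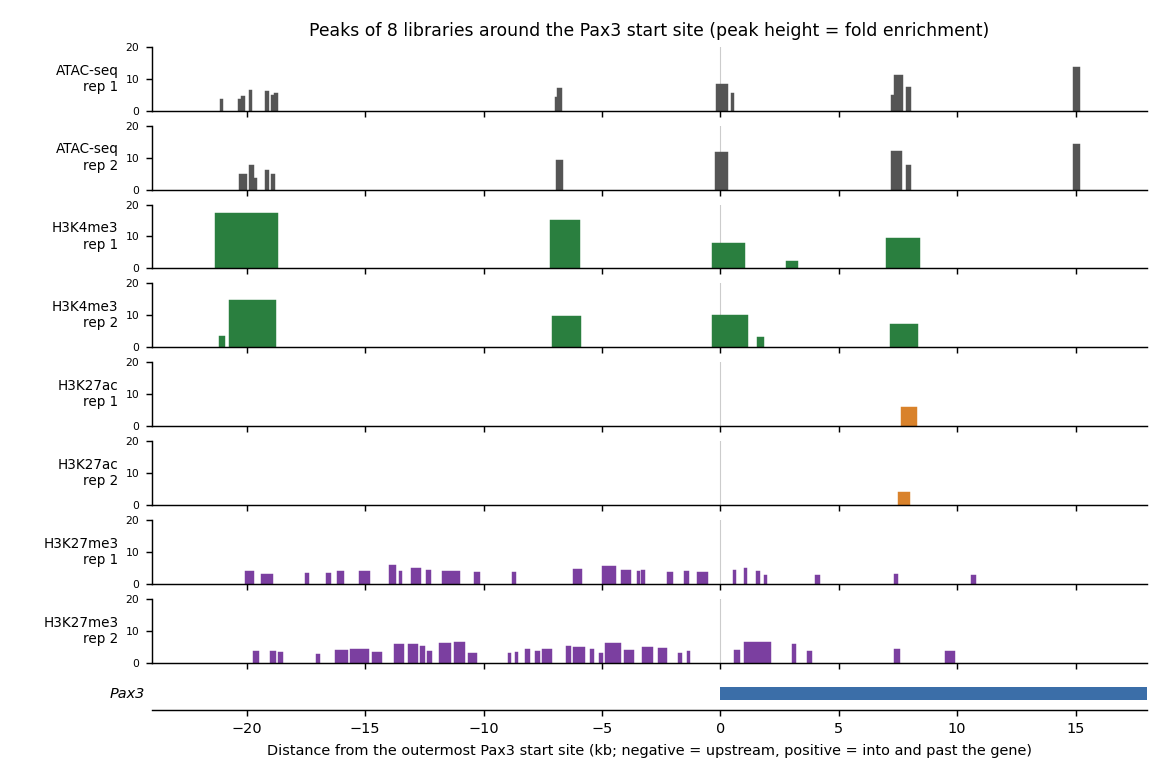
Peaks of the 8 libraries around the *Pax3* start site, by distance from it in kb (horizontal axis), with the height of each block giving its fold enrichment and the gene as a blue bar. H3K27me3 peaks run from about 20.1 kb upstream to 10.8 kb inside, the 4 H3K4me3 blocks recur in both replicates, and the only H3K27ac lies over the intronic block near 7.7 kb.

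H3K4me3 marked 4 places around *Pax3* in both replicates, and the start site was not the strongest. The peak at the start, chr1:78196011-78197475 over both replicates, had folds of 8.08 and 10. The island centred 20 kb upstream, chr1:78215840-78218476, had folds of 17.4 and 14.8, and that centred 6.58 kb upstream, chr1:78203083-78204349, of 15.1 and 9.71. The fourth, chr1:78188733-78190144 in intron 4, had folds of 9.51 and 7.42. The island 20 kb upstream exceeded the start site in each replicate, while that at 6.58 kb did so in replicate 1 alone.

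GENCODE M21 has no gene at the upstream islands, but RefSeq does. It places the start of *Gm2102*, a predicted protein-coding gene on the same strand as *Pax3*, 21.1 kb upstream, inside the first of these islands. Within 3 kb of that start, H3K4me3 covered 43.9% and 35.8% of bases, H3K27me3 12.5% and 10.2% and H3K27ac none. RefSeq also lists a lncRNA, *Gm33152*, starting 4.09 kb upstream on the other strand. The island 20 kb upstream was rich in CpG, with 207 of them and an observed-over-expected ratio of 0.780, and the other 3 H3K4me3 regions had ratios of 0.538 to 0.670. For H3K4me3 peaks of the genome the median was 0.647 and 0.691 at promoters and 0.428 and 0.499 away from them.

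Peaks of H3K4me3 and H3K27me3 shared a minority of their bases, and whether the 2 marks avoid each other was not tested. Of the bases under H3K4me3 peaks around *Pax3*, 15.4% and 27.2% were also under H3K27me3 peaks, and of those under H3K27me3 peaks 18% and 15.6% were under H3K4me3. Peak by peak, 3 of 5 and 3 of 4 H3K4me3 peaks away from annotated promoters met H3K27me3 of the same replicate, where 2.70% of 4363 and 4.78% of 2511 such peaks in the genome did. All 4 H3K4me3 regions found in both replicates met a listed H3K27me3 peak in both, with no filter on the q-value.

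H3K27ac was nearly absent around *Pax3*. The only region in both replicates was in intron 4, chr1:78188858-78189632, with folds of 6.13 and 4.05, inside the intronic H3K4me3 island. The same 1.4 kb held 2 open regions, at 7.92 kb (ATAC-seq folds 7.43 and 7.76) and 7.45 kb (11.2 and 12.1), and a small H3K27me3 peak (folds 3 and 4.45). All 4 features thus had a listed peak in this island in both replicates. The H3K27me3 peak of replicate 1 had a −log10 q of 0.0394 and did not pass a q-value of 0.05, and it did not overlap the H3K27ac peak of that replicate. The open window at 7.92 kb, shown above, held a homeodomain pair with 3 bases between, which was found in 0.152% of open windows in the genome and in none of the 28 around *Pax7*. The window at 7.45 kb was 75% G and C with 25 CpG. A further H3K27ac peak, 40.4 kb into the gene (fold 3.66), was found in replicate 1 alone.

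The most open region of *Pax3* lay 15.1 kb into the gene, in intron 4, with ATAC-seq folds of 13.6 and 14.2, above those at the start site in both replicates. It carried none of the 3 histone marks, and its window held 1 CAGCTG. Away from promoters *Pax3* had 9 open regions in both replicates, 4 in intron 4 and 5 upstream, and none past its 3′ end. Of the 9, 7 overlapped H3K4me3 in both replicates, 2 H3K27ac and 2 H3K27me3, against 5.19%, 8.35% and 0.198% in the genome. The 7 lay in 3 H3K4me3 islands, so they are not independent of each other. By RefSeq 4 of the 5 upstream open regions lie in *Gm2102*, whose start GENCODE does not hold.

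**Figure D5:**
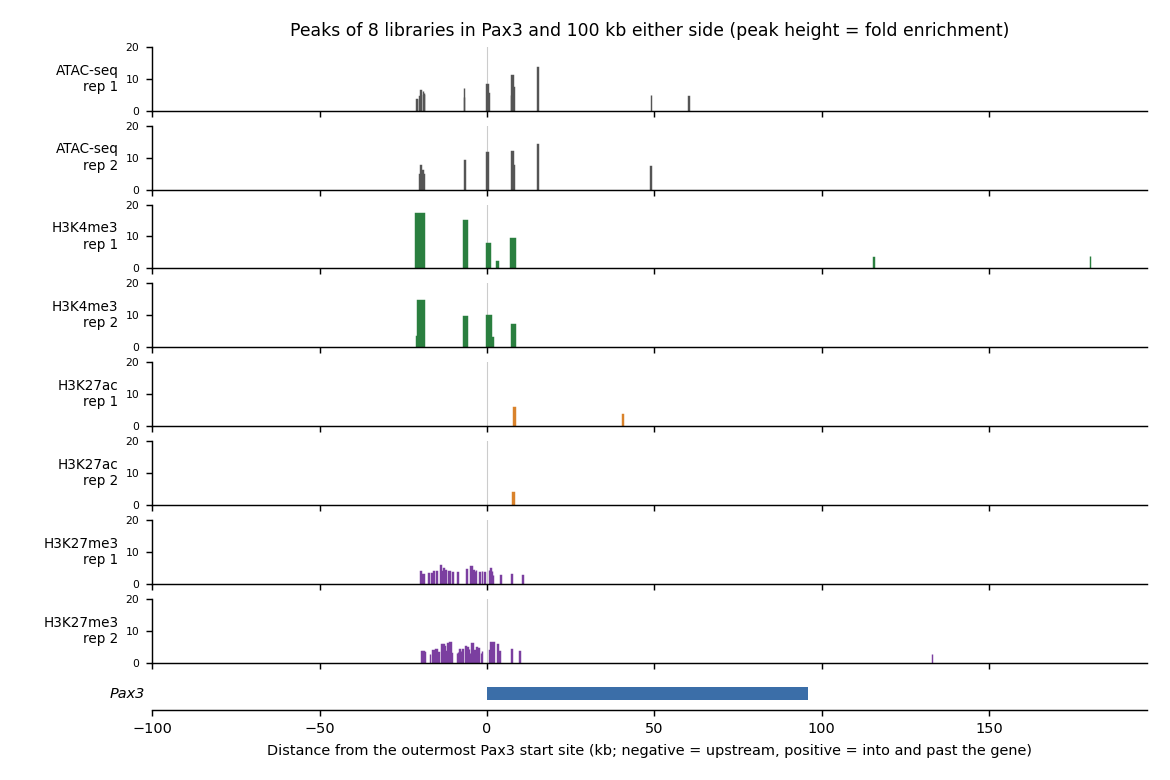
Peaks of the 8 libraries in *Pax3* and 100 kb either side, drawn by distance from the outermost start site in kb (horizontal axis) with the height of each block giving its fold enrichment and the gene as a blue bar. Peaks of all features gather between about 21 kb upstream and 15.1 kb inside the gene, and most of the gene and its downstream flank is empty.

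Several elements that drive *Pax3* in the embryo are listed by RefSeq from transgenic work, and the peaks could be set on them. An enhancer fragment upstream of the gene, chr1:78202807-78203948, was under H3K4me3 peaks over 73.2% and 75.8% of its bases. H3K27me3 covered 27.3% and 54.6% of it, ATAC-seq 7.71% and 9.98% and H3K27ac none. An element active in the hypaxial somite, the source of limb muscle precursors, lies at chr1:78202782-78203072, mostly within that fragment, and had H3K27me3 over 14.8% and 54.3% and no other feature.

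The neural crest element, chr1:78197855-78198465, had H3K27me3 over 41.7% of its bases in replicate 1, no H3K27me3 in replicate 2 and none of the other features in either. The intronic neural crest element ECR2, chr1:78167435-78168394, and an element active in melanocytes, chr1:78059403-78061507, had no peak in any of the 8 libraries. RefSeq lists no such element for the surroundings of *Pax7*. An absent peak means only that none passed the threshold.

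The other 7 genes of the Pax family, which pattern organs such as eye, kidney, thyroid and vertebrae, had no H3K27ac promoter peak in either replicate. H3K27me3 was found in both replicates at 6 of the 7, all but *Pax4*, with *Pax6* the most covered (45.9% and 64%) and *Pax2* next (35.4% and 58.8%). H3K4me3 of both replicates was found at *Pax2*, *Pax5*, *Pax6* and *Pax9*, with coverage of at most 19.3%, below that of *Pax3*. Of all protein-coding genes, 46.6% had H3K27ac, 4.81% H3K27me3 and 60.8% H3K4me3 at the promoter in both replicates. The 4 of 7 with H3K4me3 are thus near the share over all genes. In ATAC-seq the highest of the 7 was *Pax9*, at 4.83% and 5.02%, again below *Pax3*. *Pax3* thus shared H3K27me3 with 6 relatives, and its promoter was more covered by H3K4me3 and ATAC-seq peaks than that of each of them. Coverage is a share of the windows around every start site, so a gene with start sites far apart can have a lower value for the same peaks. *Pax2*, *Pax5*, *Pax6* and *Pax9* had the same combination as *Pax3*. By fold in replicate 1, *Pax9* (18.5), *Pax1* (11.9) and *Pax5* (11.5) exceeded *Pax3* (8.48) in ATAC-seq, and *Pax2* (12) exceeded it (8.08) in H3K4me3. In replicate 2 its folds of 11.8 in ATAC-seq and 10 in H3K4me3 were above those of all 7.

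Genes that work with or under PAX3 and PAX7 had open promoters. All 13 of the list had peaks of H3K27ac, of H3K4me3 and of ATAC-seq in both replicates, and none had H3K27me3, beside the shares of 67.8%, 60.8%, 46.6% and 4.81% given above for all genes. Among targets, *Myf5*, the first myogenic determination gene, was the most covered, with H3K4me3 over 97.3% and 86.8% and H3K27ac over 92.4% and 77%. *Lbx1* and *Dmrt2*, known as *Pax3* targets in the embryo, had H3K4me3 over 83.2% and 76.6% and over 84.4% and 66.6%. *Myod1* had H3K27ac over 52.3% and 42.7% and *Met*, the receptor needed for migration into the limb, over 8.35% and 6.96%. The cofactors *Carm1*, *Wdr5*, *Ash2l*, *Kmt2d* and *Paxbp1*, through which PAX7 recruits H3K4 methylation, had H3K27ac over at most 11.2%, where the median of genes with an H3K27ac promoter peak was 10.6% and 9.09%. By fold the order was the other way. The strongest H3K27ac promoter peaks of these cofactors had folds of 16.5 to 33.3 in replicate 1 and 16.9 to 23.5 in replicate 2. At *Met* they were 23 and 18, against 10.3 and 13.2 at *Myf5* and 15.5 and 10.6 at *Myod1*. Coverage is a share of the 3 kb either side of every start site, so it also depends on how the start sites of a gene are spread.

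The cells' identity was checked on marker genes. Of 8 markers of MuSCs, 8 had ATAC-seq and H3K4me3 and 7 had H3K27ac at the promoter in both replicates, *Calcr* being without. Of all protein-coding genes, 67.8% had such peaks in ATAC-seq, 60.8% in H3K4me3 and 46.6% in H3K27ac, so these short lists are a weak check. Of markers of other cells in muscle, H3K27ac was found at the promoter in both replicates for 1 of 4 of fibro-adipogenic cells (*Dpt*), 1 of 4 of endothelial cells (*Tek*), 1 of 4 of blood cells (*Cd68*) and 0 of 4 of myofibres. The other 3 blood markers had H3K27ac in a single replicate, *Ptprc* over 3.44% in replicate 2, and *Itgam* over 3.36% and *Spi1* over 10.1% in replicate 1, so no blood marker was without it. Glia and pigment cells are other cells known to use *Pax3*, and of their markers *Sox10*, *Mitf* and *Tyr* had no H3K27ac in either replicate. *Pdgfra*, a fibro-adipogenic marker singled out after its values were seen, had the same combination as *Pax3*, with H3K4me3 over 24.6% and 18.5%, H3K27me3 over 18.9% and 32% and no H3K27ac.

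Likeness to other genes was measured as the Euclidean distance over the 8 libraries in percent of promoter bases in peaks. Nearest to *Pax7* were *Irf2bp2* (31.1), *Gm37419* (33.1) and *Ptma* (33.4), all with H3K4me3 and H3K27ac over most of the promoter. Nearest to *Pax3* were *Hhex* (9.82), a homeobox gene, *Cbx8* (10.1), a Polycomb subunit gene, and *Cilp2* (10.4). *Cbx8* differed in carrying H3K27ac, over 3.89% and 5.21%. The distance between *Pax3* and *Pax7* was 152, and among 21937 other genes *Pax7* ranked 21931 in nearness to *Pax3*, while *Pax3* ranked 8062 in nearness to *Pax7*. The distance rests on covered length and takes no account of fold.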

How the data were processed

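MuSCs were profiled by ATAC-seq and by ChIP-seq for 3 histone marks, 2 replicates each. Per the labels and the study's methods, the authors trimmed reads with Trim Galore 0.6.10, aligned them to mm10 with BWA 0.7.17-r1188 and called peaks per replicate with MACS2 2.2.6. The deposited lists give for each peak its position, a score, a fold (the ratio of signal to local background), −log10 of the p-value and −log10 of the q-value. The H3K27me3 lists carry a p-value threshold of 0.001 in their name, and the lowest deposited −log10 p was 3.01 in both. The other lists held no peak under a −log10 q of 1.32. The 2 input libraries were not analysed here. Before peak calling the authors dropped poorly mapped reads, duplicates and blacklisted regions, and shifted ATAC-seq reads for the way Tn5 inserts. Read depth cannot be judged from peak lists.

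Peaks on the 21 assembled chromosomes were placed against GENCODE M21 with Python 3.11.15, numpy and pandas, and covered bases were counted on the union of a list's peaks. Peaks were called overlapping at 1 bp or more. The interval code was tested on simulated peaks and recovered the covered bases in 500 of 500 windows. Sequence came from RefSeq's GRCm38.p6 FASTA, and its annotation gave the *Pax3* elements and genes that GENCODE lacks. No protein sequence is shown.

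Samples were grouped by the feature in their titles. The genes, gene lists, elements and motifs were chosen with earlier results of these data known. Named beside both genes were the other Pax genes, 13 partners and targets, marker genes, the 3 nearest promoter patterns, and neighbouring elements, by ATAC-seq fold and by H3K27ac in both replicates. Runs of peaks (joined over gaps of up to 5 kb, with 12.5 kb as an alternative), the RefSeq elements and the CTCF core were added after the peaks had been seen. Values are given per replicate or as mean and SD of 2, with no test. Nothing says that replicates came from separate animals, so their spread may be technical. Some glial markers are not reported here.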

Additional observations from a re-analysis of the deposited data

How the results depend on the processing

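No paired analysis was possible because the values come from no test. Each difference was taken within a replicate, and its SD is over the 2 differences. No difference between *Pax7* and *Pax3* changed direction under any alternative tried, though their sizes shifted as given below. With 2 replicates, leaving 1 out gives only the difference of the other. For covered promoter bases, *Pax7* minus *Pax3* was 12.8 percentage points in ATAC-seq, 36.2 in H3K4me3 and 100 in H3K27ac with promoters of 1 kb either side. When peaks below a −log10 q of 5 were dropped, the differences were 4.38, 47.1, 89 and, in H3K27me3, −10.1, where replicate 1 had no such peak left at the *Pax3* promoter. With the outermost start site alone the H3K4me3 difference was 39. Leaving out either replicate gave 5.28 to 6.8 for ATAC-seq, 39.8 to 42.2 for H3K4me3, 92 to 98.3 for H3K27ac and −34.7 to −18.1 for H3K27me3.

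For numbers of peaks, a −log10 q of at least 5 gave differences of −1.5 in H3K4me3, 14 in H3K27ac and −4 in H3K27me3. Overlap with the other replicate by 1 bp gave −1, 14.5 and −18.5. Sharing at least 50% of the length both ways gave 21 in ATAC-seq, 7 in H3K27ac and −8 in H3K27me3. Leaving out either replicate gave 29 to 38 for ATAC-seq, 18 to 26 for H3K27ac, −35 to −28 for H3K27me3 and −5 to −1 for H3K4me3. The H3K4me3 count rests on how the *Pax7* domain was cut, as 1 peak in replicate 1 and 4 in replicate 2. The causes of the other shifts were not tested. Peak lists without counts allow no interval on any value.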
